A study of Mus musculus with 9 samples.

Results

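The nuclear genes for respiratory complexes II to V form a set of 49 among the 19505 genes that the array names: 4 subunits of complex II, 9 of complex III, cytochrome c, 17 of complex IV, 17 of complex V and Cox7a2l, which is no subunit of a single complex but joins complexes into supercomplexes. They were chosen by symbol (Sdha to Sdhd, the Uqcr genes, Cyc1, Cycs, Cox4 to Cox8 and the Atp5 genes), and each gene stands in 1 row of the table. The 9 samples are white adipose tissue (WAT) of male mice, in 3 groups of 3 samples. Wild type mice, C57BL/6JHamSlc-+/+, were given vehicle. Mice of the ob/ob strain, C57BL/6JHamSlc-ob/ob, which lack functional leptin through the ob mutation, were given vehicle or 100 mg/kg of VE, an extract of Vigna umbellata (rice bean), by gavage for 6 weeks. All were 6 weeks old when obtained, were given a week to settle and ate standard chow. The extract was given to ob/ob mice alone, so its effect without the ob mutation was not measured, and the fat depot is not stated. Values are log2 intensities on Clariom S mouse arrays. A value compares arrays for 1 gene and not 1 gene with another, because each gene has probes of its own.

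The respiratory chain lies in the inner mitochondrial membrane. Complex II (succinate dehydrogenase) oxidizes succinate and passes electrons to ubiquinone, complex III hands them to cytochrome c, and complex IV (cytochrome c oxidase) reduces oxygen. Complex V, the ATP synthase, turns the proton gradient into ATP by rotating a ring of c subunits in the membrane and a central stalk inside the F1 head. All subunits of complex II and most of the others are encoded in the nucleus, while cytochrome b of complex III, the catalytic core of complex IV and a few subunits of complex V are encoded in mitochondrial DNA. Of 6 such mitochondrial genes looked for, 0 matched a named row of the table, so the set covers only the nuclear side. In white fat the chain serves lipid synthesis, adipokine production and, in beige cells, heat.

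Regulatory sequence is shown first for 6 members on which the results turn: Atp5g1, Atp5d, Atp5md, Cox7c and Cox6a1 had high values in the VE arrays, and Cycs is a textbook target of nuclear respiratory factor 1 (NRF1). Each line is the RefSeq promoter window of 250 bases before to 50 bases after the annotated start, build GRCm38.p6, written 5′ to 3′ on the gene's strand, with matches to any of 4 motifs in capitals.
Atp5g1 (chr11:96075582-96075881, minus strand): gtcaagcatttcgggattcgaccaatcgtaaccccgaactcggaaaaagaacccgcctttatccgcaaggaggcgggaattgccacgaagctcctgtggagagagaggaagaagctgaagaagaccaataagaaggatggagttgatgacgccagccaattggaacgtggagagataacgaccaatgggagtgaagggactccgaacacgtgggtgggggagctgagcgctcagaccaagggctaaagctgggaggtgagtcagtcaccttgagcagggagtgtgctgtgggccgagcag
Atp5d (chr10:80142025-80142324, plus strand): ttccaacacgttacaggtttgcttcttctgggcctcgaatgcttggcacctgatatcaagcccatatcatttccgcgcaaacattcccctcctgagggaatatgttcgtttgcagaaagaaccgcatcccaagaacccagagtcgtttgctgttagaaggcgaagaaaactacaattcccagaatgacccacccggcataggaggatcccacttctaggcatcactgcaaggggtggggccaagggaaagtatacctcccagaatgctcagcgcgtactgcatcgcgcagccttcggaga
Atp5md (chr19:47090598-47090897, minus strand): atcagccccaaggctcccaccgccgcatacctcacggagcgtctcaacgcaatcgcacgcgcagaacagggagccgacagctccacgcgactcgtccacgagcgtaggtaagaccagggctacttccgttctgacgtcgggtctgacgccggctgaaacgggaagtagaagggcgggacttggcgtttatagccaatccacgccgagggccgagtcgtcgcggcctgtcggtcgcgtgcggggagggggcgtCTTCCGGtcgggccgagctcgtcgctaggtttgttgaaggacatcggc
Cox7c (chr13:86046746-86047045, minus strand): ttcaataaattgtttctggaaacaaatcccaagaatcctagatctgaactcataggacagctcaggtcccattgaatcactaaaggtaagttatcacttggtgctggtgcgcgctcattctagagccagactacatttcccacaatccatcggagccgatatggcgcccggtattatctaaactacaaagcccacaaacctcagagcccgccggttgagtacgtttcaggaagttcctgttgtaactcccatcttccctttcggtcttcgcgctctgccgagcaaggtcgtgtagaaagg
Cox6a1 (chr5:115348909-115349208, minus strand): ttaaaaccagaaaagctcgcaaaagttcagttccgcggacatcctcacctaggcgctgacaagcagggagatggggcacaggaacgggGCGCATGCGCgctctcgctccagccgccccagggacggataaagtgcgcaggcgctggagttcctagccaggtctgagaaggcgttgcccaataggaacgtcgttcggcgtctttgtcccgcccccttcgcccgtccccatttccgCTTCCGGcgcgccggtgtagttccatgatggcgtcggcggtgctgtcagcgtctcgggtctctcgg
Cycs (chr6:50566520-50566819, minus strand): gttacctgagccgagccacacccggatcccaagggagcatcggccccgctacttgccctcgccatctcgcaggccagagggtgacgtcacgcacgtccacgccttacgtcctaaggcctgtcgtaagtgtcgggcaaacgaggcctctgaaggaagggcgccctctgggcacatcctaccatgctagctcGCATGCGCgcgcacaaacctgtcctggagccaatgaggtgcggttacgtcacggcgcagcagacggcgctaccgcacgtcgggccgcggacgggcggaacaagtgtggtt
The motifs were searched on both strands as GCGCATGC for NRF1, CCGGAAG for ETS factors such as the nuclear respiratory factor GABP, AAGATGGC for YY1 and AAGGTCA for estrogen-related receptors. NRF1 letters were in the windows of 8 of the 37 members with an entry (21.6%), against 4.17% of the 15406 array genes with one. ETS letters were in 13 of 37 (35.1%) against 13.4%, YY1 letters in 3 (8.11%) against 3.68% and estrogen-related receptor letters in 5 (13.5%) against 4.56%. A match to any of the 4 was found for 19 of 37 members (51.4%) and 23.2% of genes, and matches to 2 or more for 8 members (21.6%) and 2.45% of genes. The NRF1 palindrome overlaps itself, and in Cox6a1 its forward and reverse matches, which start 162 and 160 bases before the start, form 1 run of capitals. The same window holds an ETS match 16 bases before the start. Cycs has an NRF1 match 60 bases before the start, and Atp5md has an ETS match from base 3 of the transcript. The windows of Atp5g1, Atp5d and Cox7c hold none of these letters, which says nothing of the factors themselves.

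On the whole table, 42 of the 49 members lay above the array median on all 9 arrays and 3 below it on all 9; array medians ran from 6.26 to 6.37. The adipocyte markers (12 genes, Adipoq and Fabp4 among them) had medians from 14.5 to 16.1 on every array, as the tissue label states. The wild type arrays carried more signal of 2 other kinds: epithelial markers had medians of 9.32, 10.2 and 7.88 against 4.22 to 4.84 in both ob/ob groups, with 11 of 12 lower in ob/ob, and smooth muscle markers had medians of 12.9, 17.0 and 9.79 against 7.64 to 8.45, with 3 of 7 lower. Macrophage markers ran the other way, at 7.34 to 8.29 in wild type and 12.1 to 13.3 in ob/ob, with 10 of 11 higher. The part of these lists in the results was not tested, and in whole tissue fewer cells of a type and less RNA per cell cannot be told apart. Medians of the comparisons with wild type, and the differences of some members, are therefore also given without wild type replicates 1 and 2. This alternative was chosen after the data were seen, leaves 1 wild type array and assumes it varies like the other groups. The array left, replicate 3, still lay above both ob/ob groups for epithelial (7.88) and smooth muscle (9.79) markers. The alternative thus lessens these marker differences and does not remove them. Between the ob/ob groups 0 genes of the epithelial, smooth muscle and macrophage lists were called by limma (adjusted p under 0.05) and their medians differed by -0.22 to -0.13. The 12 adipocyte markers had a median of 0.10 in VE minus ob/ob vehicle, with 10 above 0 and 0 called, and their part in the members' differences was not tested. One ob/ob vehicle array stood apart for the members: the median deviation of the 49 from their 9-array means was 0.13 in replicate 1, -0.58 in replicate 2 and -0.31 in replicate 3.

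**Figure D1:**
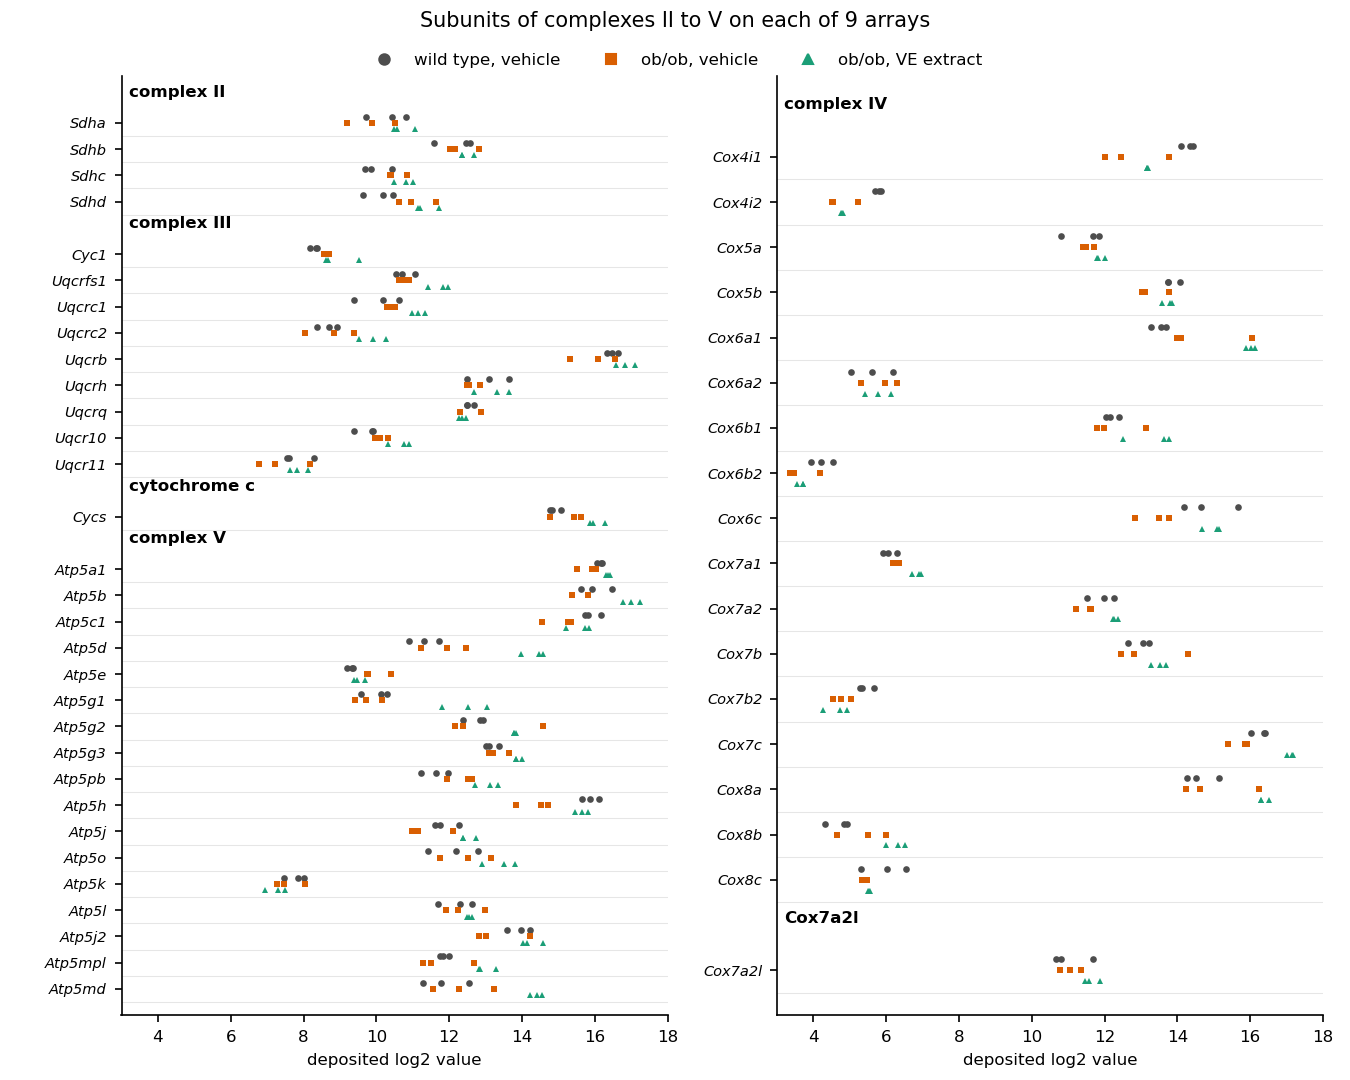
Deposited log2 values (horizontal axis) of the 49 genes on each of 9 arrays, by complex; each point is 1 array, circles are wild type vehicle, squares ob/ob vehicle and triangles ob/ob given VE. Atp5g1, Atp5d and Atp5md show 3 VE arrays clear of the other 6, and Cox6a1 and Cox8a show 1 ob/ob vehicle array at the level of the VE arrays.

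Whether the extract changed the chain in obese fat is asked by VE minus ob/ob vehicle. Here 43 of 49 members had a higher mean with VE, against 46.7% of the 19572 rows tested, and the median difference was 0.59 on the log2 scale against -0.02 over all rows. All 3 VE arrays lay above all 3 ob/ob vehicle arrays for 23 members (5.77% of all rows) and below them for 1 member, Atp5e (6.79%). None of the 49 passed an adjusted p under 0.05 in limma, where 0.0255% of all rows were called higher and 0% lower. At the submitters' own threshold, a fold over 1.1 with an unadjusted p under 0.05, 24 members were higher (2.91% of all rows) and 0 lower (1.66%). Atp5g1 and Atp5d came closest, with adjusted p of 0.0532 and 0.0589. Without ob/ob vehicle replicate 1, 3 members were called (Atp5g1, Atp5d and Cox6a1), and without wild type replicate 3, which enters only through the shared variance, 1 was called (Atp5g1). An exact permutation test of 3 arrays against 3 cannot go below p = 0.1 for a single gene.

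Ob/ob vehicle minus wild type compares obese, leptin-deficient mice with lean ones, in which obesity, the loss of leptin and the marker differences above cannot be told apart. Here the set split, with 25 of 49 members higher (47.4% of all rows) and a median of 0.01 against -0.04. After quantile normalization the median was -0.26 with 16 members higher. Rows of like brightness lay higher than the members. The 3516 rows of mean value 10 or more had a median of 0.34, with 66.0% above 0. The 37 members there had a median of 0.01, with 19 above 0. At 14 and over the 462 rows had a median of 0.52 and the 10 members -0.42, with 3 above 0. Called members were all lower: 4 of 49, namely Cox4i1, Cox4i2, Cox6c and Atp5h, against 5.05% of rows lower and 9.02% higher. The groups did not overlap for 5 members in the higher direction (15.7% of rows) and for 8 in the lower (13.1%). The 4 calls (2754 over all rows) became 1 (1641) without ob/ob vehicle replicate 2 and 2 (1954) without ob/ob vehicle replicate 3. They became 2 (2489) without wild type replicate 2. Without wild type replicates 1 and 2 the members' median was -0.11, with 20 above 0. Atp5h was called under all 24 alternatives and the other 3 called members were not.

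VE minus wild type places the treated obese mice beside lean ones and shares its arrays with both other comparisons, so the 3 sets of differences are not independent. Called higher were 17 members (12.4% of rows) and called lower 1, Cox4i2 (7.58%). The median was 0.59 against -0.07 over all rows, with 39 of 49 above 0 (45.4%). After quantile normalization it was 0.20 with 29 above 0, and 8 members and 3453 of all 19572 rows were called. Bright rows as a whole were also higher: the 3516 rows of mean value 10 or more had a median of 0.50, with 69.9% above 0. The 37 members there had a median of 0.73, with 32 above 0. Among the 728 of these rows under 10 kb in genomic span the median was 0.84, with 79.7% above 0. It was 0.895 for the 28 members there, 24 of them above 0. The 12 adipocyte markers had a median of 0.70 in the same comparison, with 10 above 0, 1 called higher and 1 lower, and their part in the members' shift was not tested. The VE arrays lay above all wild type arrays for 27 members (19.5%) and below for 5 (17.7%). Single arrays weighed on this count and on that of all rows, where 3920 of 19572 were called beside the 18 members. Without wild type replicate 1, 8 members and 3194 rows were called, and without VE replicate 1, 6 members and 2314 rows. Without VE replicate 2 the counts were 9 members and 2342 rows, and without VE replicate 3, 9 members and 2642 rows. With wild type replicate 3 as the only lean array the members' median was 0.53 against -0.02 over all rows, with 36 members above 0. Under all 24 alternatives 5 of the 18 calls stood: Atp5d, Atp5g1, Atp5md, Atp5pb and Cox8b. The other 13 were lost in some, from 1 alternative for Cox6a1 to 12 for Atp5mpl.

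**Figure D2:**
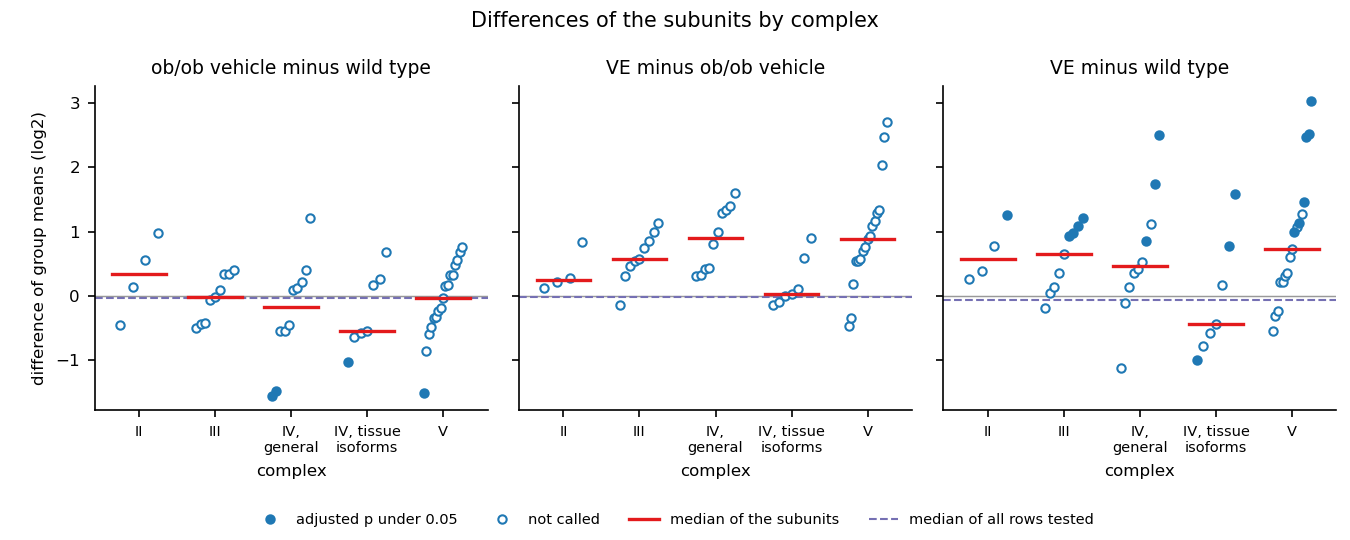
Differences of group means (log2, vertical axis) for the subunits of each complex in the 3 comparisons; filled circles passed an adjusted p under 0.05 in limma, open circles did not, red bars are medians of the subunits and the dashed line is the median of all rows tested. In VE minus ob/ob vehicle nearly all circles lie above 0 and none is filled, and in ob/ob vehicle minus wild type the filled circles lie below -1.

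Complex II had the lowest median of the 4 complexes in VE minus ob/ob vehicle, at 0.25 over its 4 genes, all above 0, and 0 of 4 separated the groups. Sdha, the flavoprotein that oxidizes succinate, was at 9.19, 9.89 and 10.52 in ob/ob vehicle and 10.58, 10.49 and 11.05 with VE, a difference of 0.84 ± 0.38 (SE, adjusted p = 1.00) with replicate 3 of ob/ob overlapping the VE arrays. Sdhb, the iron-sulfur subunit, differed by 0.12 ± 0.32 and its 3 groups overlapped throughout. Sdhd, a membrane anchor, was at 9.64, 10.18 and 10.47 in wild type, 11.64, 10.61 and 10.96 in ob/ob vehicle and 11.71, 11.14 and 11.20 with VE. Both ob/ob groups lay clear of wild type, and VE minus wild type was called (1.25 ± 0.33, adjusted p = 0.0244) while ob/ob vehicle minus wild type was not (0.97 ± 0.33, adjusted p = 0.0802). Without wild type replicates 1 and 2 the Sdhd difference with VE was 0.88 and not called (adjusted p = 0.213). Sdhc, the other anchor, was above wild type by 0.78 ± 0.27 with VE (adjusted p = 0.0720) and by 0.55 ± 0.27 in ob/ob vehicle (adjusted p = 0.218), where its arrays overlapped wild type.

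Complex III had a median of 0.58 in VE minus ob/ob vehicle, with 8 of 9 genes above 0 and 4 whose arrays did not overlap. Uqcrfs1, the Rieske iron-sulfur protein, was at 10.54, 11.06 and 10.71 in wild type, 10.63, 10.72 and 10.90 in ob/ob vehicle and 11.83, 11.42 and 11.98 with VE. The vehicle groups were level with each other and all VE arrays lay above all 6, with 0.99 ± 0.24 over ob/ob vehicle (adjusted p = 0.515) and 0.97 ± 0.24 over wild type (adjusted p = 0.0191). The core proteins, relatives of mitochondrial processing peptidases, did likewise. Uqcrc1 was at 10.51, 10.42 and 10.28 in ob/ob vehicle and 10.98, 11.14 and 11.34 with VE, and Uqcrc2 at 8.05, 8.85 and 9.38 against 9.90, 9.51 and 10.26. Both separated the ob/ob groups without a call, and both were called over wild type, by 1.09 ± 0.31 (adjusted p = 0.0319) and 1.22 ± 0.35 (adjusted p = 0.0355). Each of these calls was lost in 10 of 24 alternatives. Without wild type replicates 1 and 2 the differences over wild type were 0.52 and 1.19.

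Among the other genes of complex III, Cyc1, the c-type cytochrome of the complex, was at 8.55 to 8.69 in ob/ob vehicle, at 8.62 and 8.67 on 2 VE arrays and at 9.51 on VE replicate 3, a difference of 0.31 ± 0.27 that rested on that array. The small subunit Uqcr10 was called over wild type with VE (0.94 ± 0.25, adjusted p = 0.0265). Uqcrb, which helps form the ubiquinone site, was at 16.55, 15.32 and 16.08 in ob/ob vehicle and 17.10, 16.58 and 16.83 with VE, with no overlap and no call (0.85 ± 0.31, adjusted p = 0.961). Uqcrq was the member of the complex with a lower mean under VE, by -0.14 ± 0.23, and its arrays overlapped. The hinge protein gene Uqcrh and the small subunit gene Uqcr11 overlapped in all 3 comparisons.

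Cycs, the mobile carrier between complexes III and IV, was at 14.83, 15.08 and 14.78 in wild type, 15.61, 14.77 and 15.43 in ob/ob vehicle and 16.28, 15.96 and 15.87 with VE. Every VE array lay above every other array. The difference was 0.77 ± 0.27 over ob/ob vehicle (adjusted p = 0.942) and 1.14 ± 0.27 over wild type, which was called (adjusted p = 0.0146) but not after quantile normalization, without VE replicate 1 or without wild type replicates 1 and 2. The annotation names 3 processed copies of Cycs, and 8 members in all have such a named copy; whether their probes also read them was not tested.

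Complex IV is given by kind of subunit. The 10 subunits found in most tissues had a median of 0.90 in VE minus ob/ob vehicle, 10 of 10 above 0 and 5 with no overlap. The 7 tissue isoforms had a median of 0.02 with 4 above 0 and 2 with no overlap. The difference between these kinds was not tested. The isoforms are also the dimmest genes of the complex, at group means from 3.66 to 6.86, so kind and level cannot be told apart. All rows of mean value under 6 had a median of -0.09 in this comparison. Cox7c, a small nuclear subunit, was at 16.01, 16.42 and 16.37 in wild type, 15.86, 15.39 and 15.92 in ob/ob vehicle and 17.16, 17.02 and 17.17 with VE. Ob/ob vehicle was lowest and VE highest with no overlap among the 3 groups; VE exceeded ob/ob vehicle by 1.39 ± 0.23 (adjusted p = 0.131) and wild type by 0.85 ± 0.23 (adjusted p = 0.0288). Cox7a2 was also clear of ob/ob vehicle, at 12.36, 12.22 and 12.26 against 11.62, 11.22 and 11.59, and overlapped wild type.

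Of the 4 members called lower in ob/ob vehicle than in lean mice, 2 are general subunits of complex IV, Cox6c and Cox4i1. Cox6c, a small nuclear subunit, was at 14.65, 15.66 and 14.19 in wild type, 13.50, 12.83 and 13.76 in ob/ob vehicle and 15.08, 14.68 and 15.15 with VE. It was 2.77-fold lower in ob/ob vehicle (against wild type, -1.47 ± 0.39, adjusted p = 0.0309), and all VE arrays lay above ob/ob vehicle (1.61 ± 0.39, adjusted p = 0.513) and within the wild type range. Cox4i1, the usual form of subunit 4, which binds ATP and sets the enzyme's activity, was at 14.11, 14.43 and 14.35 in wild type, 13.76, 12.02 and 12.46 in ob/ob vehicle and 13.19, 13.16 and 13.16 with VE. It was 2.93-fold lower in ob/ob vehicle (-1.55 ± 0.38, adjusted p = 0.0241). With VE it stayed under every wild type array (-1.13 ± 0.38, adjusted p = 0.0656) and inside the ob/ob vehicle range. Both calls ended without ob/ob vehicle replicate 2, without wild type replicate 2 and without wild type replicates 1 and 2. The Cox4i1 call also ended without ob/ob vehicle replicate 3, and the Cox6c call without ob/ob vehicle replicate 1 or wild type replicate 1.

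In Cox6a1, Cox8a, Cox7b and Cox6b1, ob/ob vehicle replicate 1 stood far above replicates 2 and 3. The same feature was seen in Cox4i1 and in genes of complex V such as Atp5g2 and Atp5mpl. Cox6a1 was at 13.56, 13.27 and 13.70 in wild type, 16.06, 14.11 and 13.98 in ob/ob vehicle and 15.89, 16.13 and 16.01 with VE. Replicate 1 of ob/ob vehicle thus sat within the VE values and its 2 companions nearer wild type. VE minus ob/ob vehicle was 1.29 ± 0.47 over the 3 arrays (adjusted p = 0.961) and 1.96 without replicate 1 (adjusted p = 0.0339, with a range of 0.0339 to 1.00 over the alternatives). Against wild type the VE arrays were 5.66-fold higher (2.5 ± 0.47, adjusted p = 0.00553), a call lost only without wild type replicates 1 and 2 (2.31, adjusted p = 0.0511). Cox8a was at 16.23, 14.62 and 14.25 in ob/ob vehicle against 16.30, 16.53 and 16.29 with VE, and VE exceeded wild type by 1.74 ± 0.46 (adjusted p = 0.0253). This call was lost in 8 of 24 alternatives, and the difference was 1.23 without wild type replicates 1 and 2. Cox6b1, which sits on the intermembrane face, was at 13.14, 11.98 and 11.80 against 13.77, 13.62 and 12.52, and VE replicate 3 fell among the ob/ob vehicle arrays. Cox5a and Cox5b, 2 further nuclear subunits, overlapped wild type in both obese groups: Cox5b was at 13.12 and 13.03 on 2 ob/ob vehicle arrays and at 13.58 to 14.07 on the other 7.

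The tissue isoforms of complex IV lay low on these arrays, at mean values from 3.66 to 6.86. Cox7a1 and Cox8b, forms of heart, skeletal muscle and brown fat, were the 2 of 7 called over wild type with VE. Cox7a1 was at 6.06, 5.92 and 6.29 in wild type, 6.27, 6.35 and 6.18 in ob/ob vehicle and 6.97, 6.70 and 6.91 with VE. The vehicle groups overlapped, and VE was called over wild type (0.77 ± 0.21, adjusted p = 0.0277) and not over ob/ob vehicle (0.59 ± 0.21, adjusted p = 0.951). Cox8b was at 4.92, 4.84 and 4.33 in wild type, 6.01, 4.65 and 5.49 in ob/ob vehicle and 6.52, 6.00 and 6.33 with VE. It was 3.00-fold higher with VE than in wild type (1.59 ± 0.35, adjusted p = 0.0111), while replicate 1 of ob/ob vehicle touched the VE range (0.90 ± 0.35, adjusted p = 0.995).

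Markers of the tissues these isoforms are known from are given beside them. The 12 brown and beige fat markers had a median difference of 0.03 in VE minus ob/ob vehicle with 0 called. In VE minus wild type, where Cox7a1 and Cox8b were called, 8 of the 12 were above 0 (45.4% of all rows). Of the 12, 3 were called higher (12.4% of all rows): Cpt1b (1.71), Otop1 (2.05) and Pdk4 (2.92). In ob/ob vehicle minus wild type, where neither isoform was called, 3 of the 12 were likewise called higher (9.02% of all rows) and 6 were above 0 (47.4%). The part of these markers in the isoform calls was not tested. Ucp1, the uncoupling protein of brown fat, was at 4.06 to 4.38 in wild type, 4.48 to 5.16 in ob/ob vehicle and 3.96 to 4.96 with VE, under the array medians. Of 15 skeletal muscle markers 0 were called in any comparison, with medians of 6.39, 6.25 and 4.61 on the wild type arrays and 4.67 to 5.02 on the others. The 7 heart muscle markers also had 0 calls. Their median differences were -0.07 in ob/ob vehicle minus wild type, 0.04 in VE minus ob/ob vehicle and -0.19 in VE minus wild type. Cox6a2, the striated muscle form of subunit 6a, overlapped in all comparisons (-0.09 ± 0.36 in VE minus ob/ob vehicle).

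Cox4i2, the oxygen-responsive form of subunit 4, was called lower in both obese groups, at values under the array median on all 9 arrays. All rows of mean value under 6 had medians of -0.14 in ob/ob vehicle minus wild type and -0.24 in VE minus wild type. It was at 5.80, 5.69 and 5.87 in wild type, 5.24, 4.51 and 4.55 in ob/ob vehicle and 4.76, 4.78 and 4.83 with VE. Both ob/ob groups lay under every wild type array, by -1.02 ± 0.24 (adjusted p = 0.0199) and -0.997 ± 0.24 (adjusted p = 0.0177). The first was not called in limma with only the 2 groups compared (adjusted p = 0.0663), nor the second after quantile normalization (adjusted p = 0.0514). Both calls ended without wild type replicates 1 and 2, the first also without ob/ob vehicle replicate 2 or 3 and the second without VE replicate 1 or 2. The testis forms Cox6b2, Cox7b2 and Cox8c lay between 3.35 and 6.56 on all arrays. Cox7b2 was lower in both obese groups, by -0.64 ± 0.25 (adjusted p = 0.128) and -0.77 ± 0.25 (adjusted p = 0.0564). Of 11 testis and sperm markers 6 were called lower in VE minus wild type (7.58% of all rows) and 1 in ob/ob vehicle minus wild type (5.05%). Their part in the Cox7b2 differences was not tested.

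Cox7a2l, the supercomplex factor, was at 10.80, 11.67 and 10.66 in wild type, 11.34, 10.77 and 11.04 in ob/ob vehicle and 11.87, 11.46 and 11.58 with VE. The VE arrays lay above ob/ob vehicle and overlapped wild type, and no comparison was called.

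**Figure D3:**
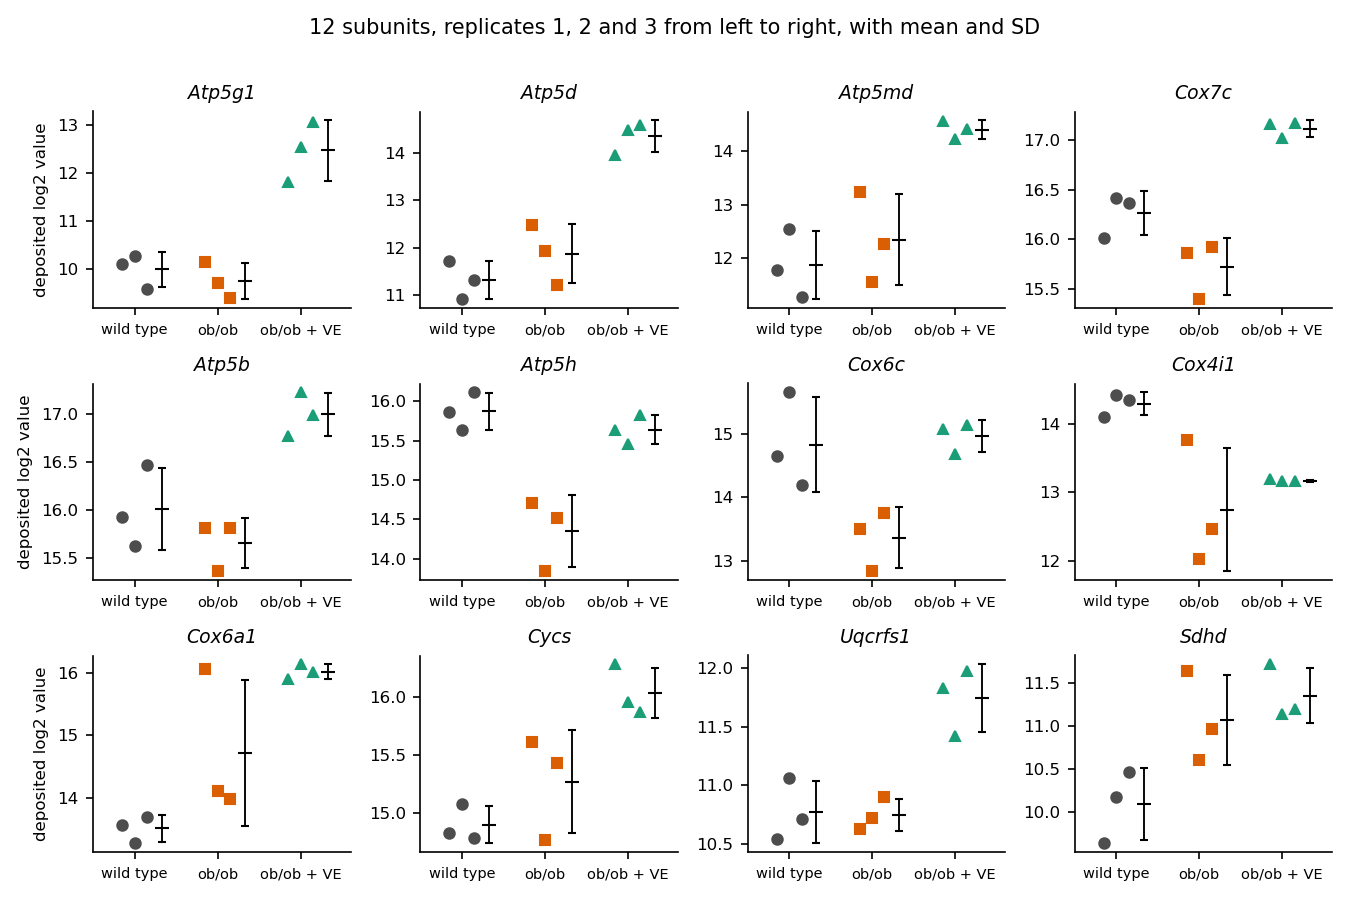
Deposited log2 values of 12 genes on the 9 arrays, each panel on its own vertical scale, with black bars for the group mean and SD (n = 3). Atp5g1, Atp5d and Atp5md have VE arrays above 6 vehicle arrays, Atp5h and Cox6c have ob/ob vehicle arrays below the other 6, and Cox4i1 is below wild type in both obese groups.

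Complex V held the 3 members with the largest differences between VE and ob/ob vehicle, Atp5g1, Atp5d and Atp5md. Of 17 genes, 15 were above 0 in VE minus ob/ob vehicle with a median of 0.89, 10 had VE arrays above all ob/ob vehicle arrays, and 6 were called over wild type. In the c ring, 3 genes encode the same mature subunit with different import sequences. Atp5g1 was at 10.12, 10.28 and 9.59 in wild type, 10.16, 9.71 and 9.40 in ob/ob vehicle and 11.81, 12.53 and 13.05 with VE. The vehicle groups overlapped and the VE arrays stood clear of both, 6.53-fold over ob/ob vehicle (2.71 ± 0.35, adjusted p = 0.0532, with a range of 0.00610 to 0.338 over the alternatives) and 5.53-fold over wild type (2.47 ± 0.35, adjusted p = 0.00119).

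The other c ring genes differed less. Atp5g2 was at 12.86, 12.37 and 12.93 in wild type, 14.59, 12.37 and 12.16 in ob/ob vehicle and 13.77, 13.83 and 13.79 with VE, so that ob/ob vehicle replicate 1 exceeded the VE arrays and replicates 2 and 3 lay under them (0.76 ± 0.54, adjusted p = 1.00). Atp5g3 was at 13.65, 13.21 and 13.08 in ob/ob vehicle and 13.83, 13.84 and 13.99 with VE, clear by a small margin (0.57 ± 0.23, adjusted p = 1.00), and 0.73 ± 0.23 over wild type (adjusted p = 0.0501). Differences between the 3 c ring genes were not tested.

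In the F1 head and central stalk, Atp5d (delta subunit) was at 11.71, 10.91 and 11.32 in wild type, 12.47, 11.93 and 11.22 in ob/ob vehicle and 13.96, 14.48 and 14.59 with VE. Every VE array was above every vehicle array, 5.54-fold over ob/ob vehicle (2.47 ± 0.35, adjusted p = 0.0589, with a range of 0.00610 to 0.411 over the alternatives) and 8.17-fold over wild type (3.03 ± 0.35, adjusted p = 0.000349), the highest difference of any member in that comparison. Atp5b, the catalytic beta subunit, was at 15.93, 15.63 and 16.47 in wild type, 15.81, 15.36 and 15.81 in ob/ob vehicle and 16.78, 17.23 and 16.99 with VE. It was again clear of both vehicle groups, by 1.34 ± 0.27 (adjusted p = 0.320) and 0.99 ± 0.27 (adjusted p = 0.0301). The call over wild type was lost in 9 of 24 alternatives, and the difference was 0.53 without wild type replicates 1 and 2.

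The remaining F1 genes did not follow Atp5d in size. Atp5a1, the alpha subunit that alternates with beta in the head, was at 16.02, 15.52 and 15.92 in ob/ob vehicle and 16.41, 16.37 and 16.32 with VE (0.55 ± 0.21, adjusted p = 1.00). Atp5c1, the rotating gamma subunit, was lower with ob/ob vehicle than on wild type arrays, at 15.35, 14.54 and 15.26 against 15.73, 15.82 and 16.17 (-0.86 ± 0.29, adjusted p = 0.0801), and VE overlapped both. Atp5e (epsilon subunit) was the one member whose VE arrays all lay below ob/ob vehicle, at 9.46, 9.39 and 9.68 against 10.41, 9.75 and 9.78 (-0.47 ± 0.24, adjusted p = 1.00), with wild type lower still at 9.19, 9.34 and 9.37.

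The peripheral stalk holds the F1 head still while the ring turns. Atp5h (subunit d) was at 15.86, 15.64 and 16.11 in wild type, 14.71, 13.84 and 14.52 in ob/ob vehicle and 15.64, 15.46 and 15.82 with VE. It was 2.85-fold lower in ob/ob vehicle (against wild type, -1.51 ± 0.27, adjusted p = 0.00509); the VE arrays lay above all ob/ob vehicle arrays (1.28 ± 0.27, adjusted p = 0.359) and overlapped wild type (-0.23 in VE minus wild type). Atp5pb (subunit b) rose over wild type with VE, at 13.35, 12.72 and 13.11 against 11.63, 11.96 and 11.22 (1.46 ± 0.29, adjusted p = 0.00729), with ob/ob vehicle between them at 11.94, 12.53 and 12.63. Atp5j (subunit F6) was at 12.11, 11.13 and 10.97 in ob/ob vehicle and 12.73, 12.37 and 12.38 with VE, with no overlap and no call. Atp5o, which caps the stalk on F1, overlapped between the ob/ob groups and was 1.27 ± 0.44 over wild type with VE (adjusted p = 0.0668).

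Small membrane subunits, which help dimerize the enzyme and bend the cristae, ran in both directions. Atp5md was at 11.78, 12.55 and 11.29 in wild type, 13.23, 11.56 and 12.26 in ob/ob vehicle and 14.55, 14.21 and 14.41 with VE. The VE arrays were clear of both vehicle groups, 4.11-fold over ob/ob vehicle (2.04 ± 0.43, adjusted p = 0.359) and 5.72-fold over wild type (2.52 ± 0.43, adjusted p = 0.00327). Atp5mpl followed with less, at 12.68, 11.28 and 11.50 in ob/ob vehicle and 13.29, 12.85 and 12.82 with VE (1.17 ± 0.35, adjusted p = 0.748), and 1.13 ± 0.35 over wild type (adjusted p = 0.0463). The Atp5mpl call over wild type was lost in 12 of 24 alternatives. Atp5j2 (subunit f) overlapped between the ob/ob groups through replicate 1 (0.89 ± 0.37), and Atp5l (subunit g) overlapped in all comparisons. Atp5k (subunit e) had a lower mean with VE than in ob/ob vehicle (-0.35 ± 0.28) and than in wild type (-0.54 ± 0.28), with overlapping arrays; it has 4 named processed copies.

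**Figure D4:**
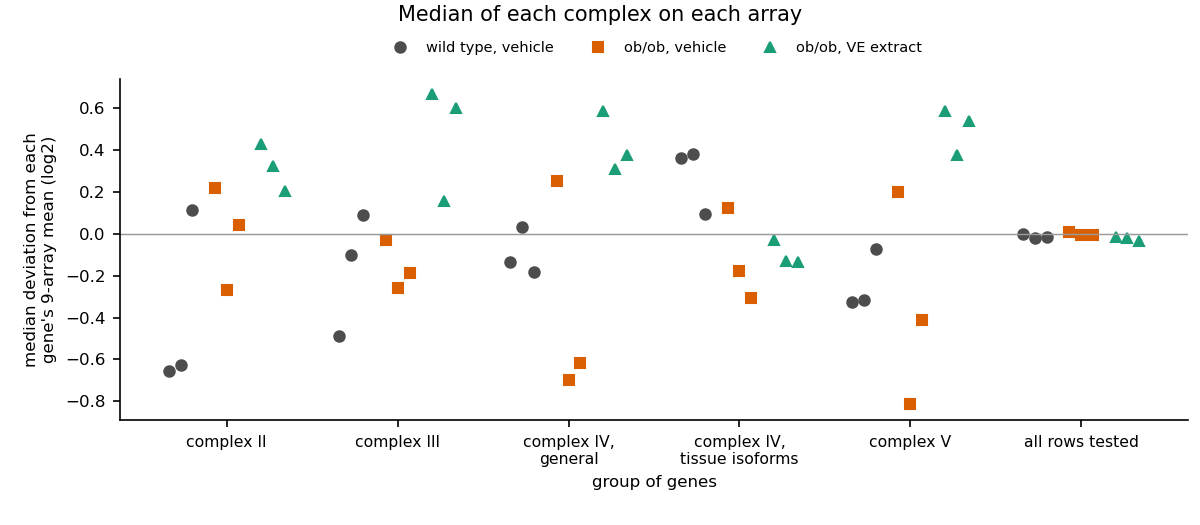
Median deviation of each complex's genes from their 9-array means (log2, vertical axis) on each array; circles are wild type, squares ob/ob vehicle and triangles VE. Complex V and the general subunits of complex IV have 2 ob/ob vehicle arrays low, 1 level with wild type or above and 3 VE arrays high, while all rows tested stay near 0.

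Side by side, the median differences between the ob/ob groups were 0.25, 0.58, 0.43 and 0.89 for complexes II, III, IV and V. Complex IV combines 0.90 for its general subunits with 0.02 for its tissue isoforms, which are also its dimmest genes. On the ob/ob vehicle arrays the median deviation of complex V was 0.20, -0.82 and -0.41, and on the VE arrays 0.58, 0.38 and 0.54. For the general subunits of complex IV it was 0.25, -0.70 and -0.62 against 0.59, 0.31 and 0.38, and for complex III -0.03, -0.26 and -0.19 against 0.67, 0.16 and 0.60. Complex II ran from 0.22, -0.27 and 0.04 to 0.43, 0.32 and 0.20, so that an ob/ob array lay among the VE arrays. The tissue isoforms of complex IV were at 0.13, -0.18 and -0.31 against -0.03, -0.13 and -0.14, with no separation. No difference between complexes was tested, since the genes of a complex share arrays and are not replicates. Without ob/ob vehicle replicate 1 the median difference became 1.33 for complex V and 0.86 for complex IV as a whole, from 0.89 and 0.43. Within complex V the medians were 1.01 for the peripheral stalk, 0.89 for the small membrane subunits, 0.76 for the c ring and 0.55 for F1.

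In ob/ob vehicle minus wild type the order of the complexes was another. Complex II had a median of 0.34, complex III of -0.02, complex IV of -0.44 and complex V of -0.04. After quantile normalization complex III stood at -0.29, and without wild type replicates 1 and 2 complex II stood at -0.06 and complex IV at -0.13. In VE minus wild type the medians were 0.58, 0.65, 0.36 and 0.73 for complexes II, III, IV and V, and complex IV fell to 0.01 after quantile normalization.

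**Figure D5:**
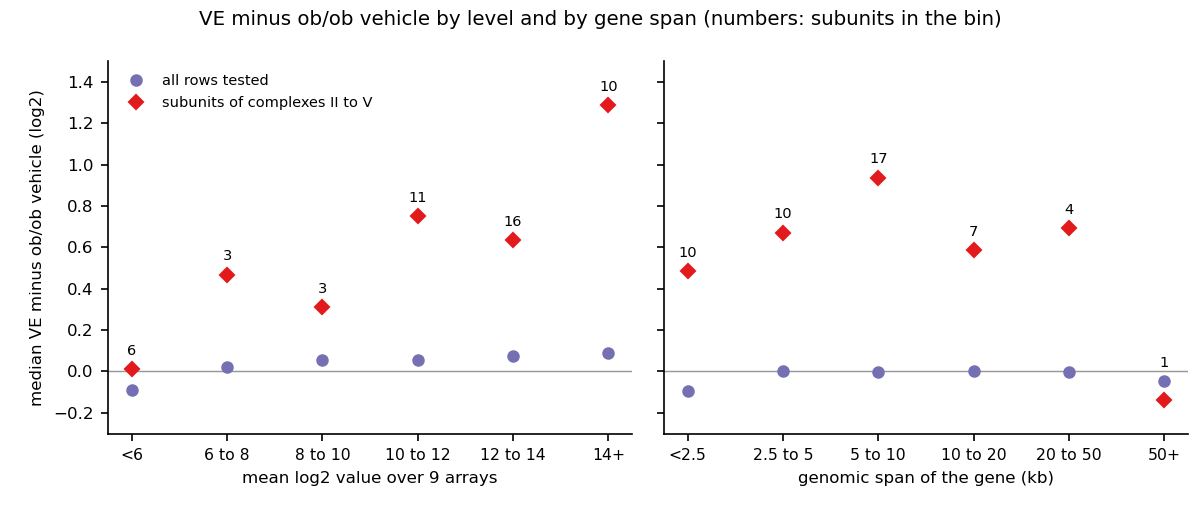
Median difference VE minus ob/ob vehicle (log2, vertical axis) of all rows tested (circles) and of the 49 genes (diamonds) in bins of mean log2 value (left) and of genomic span in kb (right); the number above each bin counts the members in it. Members lie above all rows in every bin but that of span 50 kb and over, which holds 1 member.

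Most members are bright on the array and short as genes. Over all rows tested, those under 2.5 kb in span had a median of -0.09 in VE minus ob/ob vehicle and the bins from 2.5 to 50 kb lay at about 0, while among bright rows the median was higher for short spans. Mean values of 10 or more were found for 37 members, and spans under 10 kb for 37. Among the 3516 rows at 10 or more the median of VE minus ob/ob vehicle was 0.06, and it was 0.77 for the 37 members there, 36 of them above 0. Among the 728 rows that were also under 10 kb in span the median was 0.28, with 73.4% above 0, and it was 0.92 for the 28 members, 27 of them above 0. After a trend on genomic span was taken out of each array the median of the members was 0.65 and 1 member was called. Whether RNA length or quality differed between arrays was not tested.

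For the rest of the chain, complex I gave 0 of 35 measured subunits called in VE minus ob/ob vehicle, with 32 above 0 and a median of 0.74. The highest moderated t values there belonged to Ndufs8, an iron-sulfur subunit, at 9.58, 9.11 and 9.02 in ob/ob vehicle and 11.50, 10.97 and 11.21 with VE (1.99 ± 0.28, adjusted p = 0.0589), and Ndufc1 (2.27 ± 0.35, adjusted p = 0.0804); the lowest belonged to Ndufb8 (-0.22 ± 0.24) and Ndufb10 (-0.23 ± 0.30). In ob/ob vehicle minus wild type 6 of 35 were called lower (5.05% of all rows) and 0 higher (9.02%), with a median of -0.28. Among the 6 were Ndufa5 (-1.85 ± 0.22, adjusted p = 0.000454) and Ndufv1, the subunit that accepts electrons from NADH (-1.16 ± 0.21, adjusted p = 0.00567). VE minus wild type called 10 higher (12.4% of all rows) and 5 lower (7.58%).

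Assembly factors, which build complexes II to V and are no part of them, had 28 of 33 above 0 in VE minus ob/ob vehicle with a median of 0.31 and 0 called. Uqcc2 (complex III) and Cox17, a copper chaperone for complex IV, had the highest moderated t values, at 1.26 ± 0.32 (adjusted p = 0.583) and 1.19 ± 0.33 (adjusted p = 0.637), and Lyrm7 and Atpaf2 the lowest, at -0.24 ± 0.44 and -0.11 ± 0.37. Atpaf2, which guards the free alpha subunit of ATP synthase, was the 1 factor called in ob/ob vehicle minus wild type (1.83 ± 0.37, adjusted p = 0.00856), where 9.02% of all rows were called higher. In VE minus wild type 9 of 33 were called higher (12.4% of all rows) and 0 lower (7.58%).

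Regulators of mitochondrial gene expression had a median of 0.00 over 11 genes in VE minus ob/ob vehicle, with 5 above 0 and 0 called. Ppargc1a, the coactivator known to drive respiratory genes, was at 7.54, 7.42 and 10.60 in wild type, 6.66, 6.71 and 6.2 in ob/ob vehicle and 5.51, 6.88 and 7.17 with VE. The ob/ob groups overlapped, and the wild type mean rested on replicate 3 (-2.00 ± 0.76 in ob/ob vehicle minus wild type, adjusted p = 0.116). Tfam, which packages and transcribes mitochondrial DNA, fell in ob/ob vehicle against wild type (-1.01 ± 0.27, adjusted p = 0.0334), and Gabpb1, a subunit of the ETS factor GABP, rose (0.82 ± 0.21, adjusted p = 0.0257). Neither changed by the test in VE minus ob/ob vehicle, at 0.33 ± 0.27 and -0.18 ± 0.21. The highest and lowest moderated t values among the regulators in that comparison were those of Tfb2m (0.83 ± 0.34) and Polrmt (0.66 ± 0.34) and of Ppargc1b (-0.49 ± 0.33) and Gabpa (-0.40 ± 0.29).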

How the data were processed

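RNA of 9 WAT samples was hybridized to Clariom S arrays. The deposited values are log2 intensities, which the authors normalized by SST-RMA (signal space transformation with robust multi-chip analysis) with Transcriptome Analysis Console; the series' design text gives version 4.0.2 and the submitters' processing notes give 4. The genome build of the array annotation is not given in the sources used here. Of 22206 rows, 19572 carry 1 gene symbol and were tested. No detection call or scan was used here, so no signal over background is given, and 3 arrays per group limit the precision. The labels list the samples of a group as replicates without naming each animal, so p-values measure the spread between these samples.

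One limma fit (version 3.58.1, R 4.3.3) gave 3 group means over 9 arrays, with variances moderated by empirical Bayes (4.02 prior degrees of freedom). Two-sided p-values had a Benjamini-Hochberg adjustment over 19572 rows per comparison, and a call is an adjusted p under 0.05. SE is that of the log2 difference. The fit was tested on simulated data. Where a gene had several rows, that of the highest mean stood for it. The members and lists were chosen with earlier results of these data known. Named were every called member, the 2 highest and 2 lowest moderated t values per complex and comparison, and fixed subunits and isoforms; further members are named by role, and lists by the same t rule. Alternatives covered the prior, normalization, filters, thresholds, gene span, a replicate block and single arrays left out.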

Additional observations from a re-analysis of the deposited data

How the results depend on the processing

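Of 24 alternatives, the median difference of the members kept its sign in VE minus ob/ob vehicle (0.52 to 0.78) and in VE minus wild type (0.20 to 0.70, the lowest after quantile normalization), and crossed 0 in ob/ob vehicle minus wild type (-0.26 to 0.14). The number of called members moved as follows. With only the 2 groups compared it was 1 in ob/ob vehicle minus wild type (4 in the fit reported) and 2 in VE minus ob/ob vehicle (0). A robust prior gave 2 and array weights 5 in VE minus ob/ob vehicle, and no empirical Bayes 2 in ob/ob vehicle minus wild type. Quantile normalization gave 7 in ob/ob vehicle minus wild type and 8 in VE minus wild type (18). Leaving out the dimmest 30% of rows, or the trend on gene span, gave 1 in VE minus ob/ob vehicle. The submitters' threshold gave 11 and 24, and an adjusted p under 0.1 gave 7 and 2, in the comparisons of ob/ob vehicle with wild type and of VE with ob/ob vehicle. Without wild type replicates 1 and 2 the count in VE minus ob/ob vehicle was 2. The members' medians in the comparisons with wild type, where 1 lean array is left, were then -0.11 for ob/ob vehicle and 0.53 for VE. With 1 array left out in turn the counts ran from 1 to 5 in ob/ob vehicle minus wild type, 0 to 3 in VE minus ob/ob vehicle and 6 to 21 in VE minus wild type. Over all rows they ran from 1641 to 3545, 0 to 21 and 2314 to 4706. The cause was not tested.

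The replicate block, which treats equal replicate numbers as paired, gave 3, 0 and 18 calls; the call lost was Cox6c. Whether equal numbers mark paired arrays cannot be told from 3 arrays a group and is not stated in the labels. Correlations of same-numbered deviations ran from -0.06 to 0.18, 8 of 9 under 0.1, and 5 of 9 arrays correlated best with their own number.

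Differences of uncalled members near 0 changed sign. After quantile normalization Sdhb was -0.20, -0.00093 and -0.20 in the 3 comparisons and Uqcr11 -0.15 in VE minus wild type; with the span trend removed Cox6a2 was 0.035 in VE minus ob/ob vehicle. Without wild type replicates 1 and 2, Sdhb was -0.23 in ob/ob vehicle minus wild type and -0.11 in VE minus wild type, where Sdha was -0.11 and Uqcr11 -0.44. With 1 array left out, Sdhb ran from -0.17 to 0.32, -0.032 to 0.37 and -0.047 to 0.44, Uqcr11 from -0.087 to 0.29 in VE minus wild type, and in VE minus ob/ob vehicle Cox6a2 from -0.36 to 0.13, Uqcrq from -0.24 to 0.057 and Cox7b2 from -0.27 to 0.047.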

Other observations

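Proteins that shape the cristae, the folds that hold the chain, had 11 of 11 measured genes above 0 in VE minus ob/ob vehicle, with a median of 0.38. Micos10, a core part of the cristae junction complex, was the 1 called, at 11.98, 12.70 and 12.33 in wild type, 13.24, 13.07 and 13.28 in ob/ob vehicle and 15.74, 15.50 and 15.07 with VE (2.24 ± 0.26 over ob/ob vehicle, limma adjusted p = 0.0336, all 3 VE arrays above all others; 0.0255% of all rows were called higher). In ob/ob vehicle minus wild type Mtx2, an outer membrane partner of that complex, rose (1.54 ± 0.28, adjusted p = 0.00510) and Micos13, another part of it, fell (-1.37 ± 0.34, adjusted p = 0.0258). VE minus wild type called 4 of 11 higher (12.4% of all rows) and 0 lower (7.58%).

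Carriers that bring ADP and phosphate to the ATP synthase had 5 of 6 genes above 0 in VE minus ob/ob vehicle, a median of 0.33 and 0 calls. Slc25a5, an ADP/ATP translocase, was at 14.17, 14.13 and 14.29 in ob/ob vehicle and 15.33, 15.32 and 15.45 with VE (1.17 ± 0.25, adjusted p = 0.359), and was called over wild type (1.52 ± 0.25, adjusted p = 0.00244). The calcium-regulated carriers Slc25a24 and Slc25a25 rose in ob/ob vehicle against wild type (1.85 ± 0.30, adjusted p = 0.00315, and 1.44 ± 0.32, adjusted p = 0.0140).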
